A study of Saccharomyces cerevisiae with 176 samples.

Results

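The mitochondrial ribosome of budding yeast (Saccharomyces cerevisiae) makes the few proteins that the mitochondrial genome encodes, most of them subunits of the respiratory chain and the ATP synthase. The messenger RNAs of its proteins come almost entirely from nuclear genes, and the proteins are made in the cytosol and imported. Measured here were 33 genes for proteins of its large subunit, named MRPL and numbered from MRPL3 to MRPL51. They were chosen by name, with earlier results of these data known. All 33 were found among the 6692 genes of the table, 6664 of them nuclear. Proteins of 20 members have a counterpart in bacterial ribosomes and those of 13 have none. As background, the large subunit joins amino acids, holds the tunnel through which the new protein leaves, and carries a stalk to which translation factors bind. In yeast the RNA-binding protein Puf3 binds many messenger RNAs for mitochondrial proteins downstream of the coding sequence, and mitochondrial ribosomal protein genes are known among its targets.

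The study compared aneuploid yeast, which carries an abnormal number of single chromosomes, with euploid yeast under different ways of growth, in 81 groups of libraries. All strains had the S288C background except NaCl-treated cells, and no label says that a group's libraries came from separate cultures, so p-values measure only the spread between these samples, which may be technical. Aneuploid strains, named A1, A18 to A30 and A32 to A38 where present and each 1 strain, grew exponentially in rich glucose medium at 25 °C in 6 experiments called exp1 to exp6. Beside them, the euploid strain 2N had 4 libraries in exp1 and 2 each in exp2 and exp3. In a phosphate-limited chemostat, a culture diluted at 0.17 volumes per h so that growth rate is set from outside, 9 aneuploid strains and 2N had 2 libraries each. Aneuploid populations were pooled meiotic progeny of a triploid (A40878) and euploid populations those of a diploid (A40877), both parents with the plasmid pRS315-STE2pr-spHIS5. They were grown by a protocol called Tsai or 1 called dilution, with 3 libraries each, beside 3 of exponentially growing WT haploid A2050. The labels describe both protocols with the same words and do not say what set them apart. In such pools fewer cells with a transcript and less of it per cell cannot be told apart. A2050 was also sampled every 2 h from 0 h to 26 h in rich glucose medium at 25 °C, with 2 libraries a time. Haploid W303 cells (A2587) were kept for 40 min in 500 mM NaCl at 30 °C (3 libraries), with no untreated W303 sample beside them.

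Values are TPM (the share of a transcript among all, corrected for length, per 1000000), rescaled here so that nuclear genes sum to 1000000 in each library, and differences are on the scale of log2(rescaled TPM + 1). Before rescaling, the deposited TPM of nuclear genes summed to 4.97% to 12.08% of 1000000 in exp1 to exp4, which were made from total RNA. In the NaCl libraries the sum was 13.98% to 20.48%. Elsewhere it was 85.04% to 99.62%, except in the time course (15.36% to 97.24%). Read depth is unknown. The replicate SD of a member had a median of 0.08 in exp5, 0.08 in the populations, 0.16 in exp6, 0.20 in the time course and 0.20 in the chemostat, against 0.90, 1.42, 0.81 and 0.65 in exp1 to exp4 and 0.94 in NaCl. A gene is called where its adjusted p (limma, Benjamini-Hochberg over all genes tested) was under 0.05, and errors of log2 differences are SE.

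What the 33 members share in sequence was the first thing examined. The Puf3-type motif TGTANATA, where N is any base, stood on the strand of the gene within 250 bases after the stop codon in 33 of 33 members (100%), against 910 of 6000 nuclear protein-coding genes (15.2%). On the other strand, where matches may overlap those on the first, it stood after 18.2% of members and 14.5% of all genes. The members held 42 such motifs, and the first began at a median of 48 bases after the stop (range 13 to 136). N was A in 16 motifs, T in 15, C in 10 and G in 1, and 27 members had a motif with a c 2 bases before it. Among other genes of the same machinery it stood after 11 of 11 other large subunit genes and 30 of 31 small subunit genes (96.8%). It also stood after 11 of 13 genes of a list called translation factors here (84.6%). Besides mitochondrial translation factors, that list holds OXA1, MBA1 and MDM38, which act at the inner membrane, and the ribosome assembly GTPases MTG1 and MTG2. Genes for cytosolic ribosomal proteins had it in 8 of 138 cases (5.8%). This list was picked by symbol and, wherever it is used here, includes RPP1, a subunit of nuclear RNase P and not a ribosomal protein. The pentamer CCAAT, known as the core of the binding site of the respiratory activator Hap2/Hap3/Hap4/Hap5, stood on either strand from 250 bases before to 50 bases after the start codon in 13 members (39.4%), against 43.4% of all genes. A match of letters is a description and no evidence of binding.

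These sites follow the members with the 4 largest differences in the Tsai comparison of populations and at 16 h of the time course, MRPL39, which led the dilution comparison, and MRPL3, MRPL11, MRPL32 and MRPL36, which are described in several comparisons. They are shown so that the motif can be read beside those results. They were read from the RefSeq genome R64, whose coordinates of the 33 genes are those of sacCer3, on the strand of the gene, and capitals mark the motif.

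MRPL38 (YKL170W), chrXI:131136-131163, plus strand: attaaccaccTGTATATAttgcttaaat
MRPL28 (YDR462W), chrIV:1386538-1386565, plus strand: tgtctcctgcTGTAAATAactgatgatc
MRPL25 (YGR076C), chrVII:637009-637036, minus strand: tgtctaatcaTGTAAATAattttgtgat
MRPL24 (YMR193W), chrXIII:650857-650884, plus strand: ggttttccccTGTATATAaaaaagcata
MRPL36 (YBR122C), chrII:483851-483878, minus strand: taaacagcctTGTATATAccgcaacata
MRPL39 (YML009C), chrXIII:251208-251235, minus strand: tcatttatccTGTAAATAagtaatggat
MRPL35 (YDR322W), chrIV:1111711-1111738, plus strand: tatagtatccTGTACATAtaaaataacg
MRPL23 (YOR150W), chrXV:612536-612563, plus strand: cttcaatccaTGTATATAtttatctgtt
MRPL32 (YCR003W), chrIII:119207-119234, plus strand: aacttaagccTGTATATAgaaacttaat
MRPL11 (YDL202W), chrIV:99268-99295, plus strand: tattcaatcaTGTACATAcatcatcaaa
MRPL3 (YMR024W), chrXIII:323055-323082, plus strand: tttgccatttTGTAGATAgagaactcct

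Only MRPL3 among the 33 had G at N, in its first motif, and its second motif has C there. MRPL24, MRPL28 and MRPL36, shown by their first motifs, hold a second one each. The promoters and proteins of the members were not analysed here beyond the CCAAT count.

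**Figure D1:**
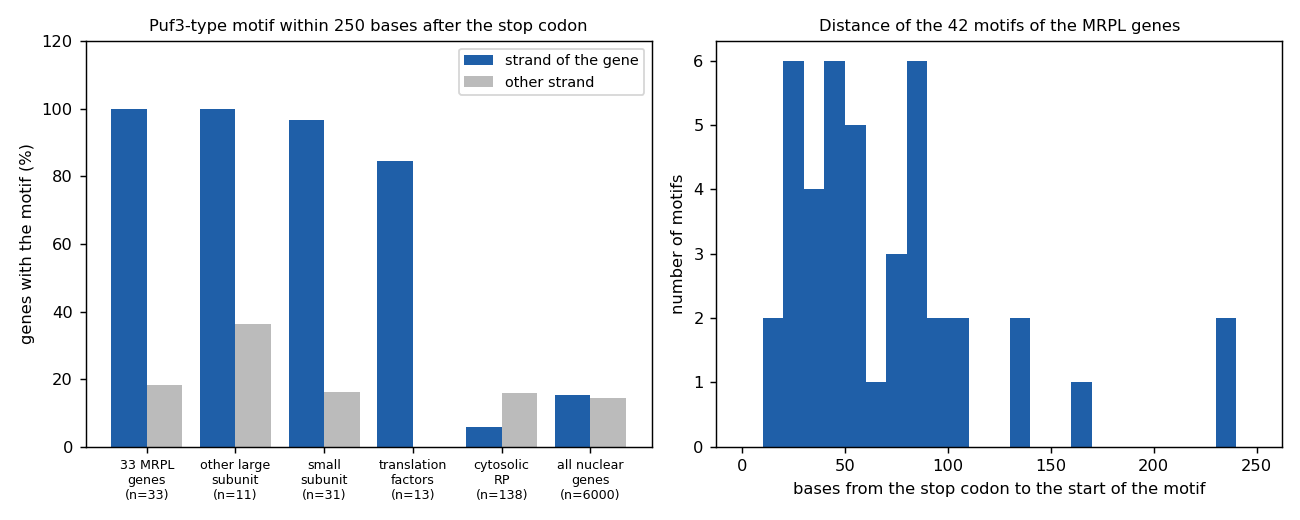
Left, share of genes (%) with the Puf3-type motif within 250 bases after the stop codon, on the strand of the gene (blue) and the other strand (grey), for the MRPL genes, 4 other lists and all nuclear protein-coding genes. Right, number of motifs of the MRPL genes by distance (bases) from the stop codon: the MRPL bar stands at 100% on the gene's strand, against 15.2% for all genes, and most motifs lie within 100 bases.

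Members were expressed from the middle of the nuclear genes upward, from percentile 46.6 (MRPL24) to 79.5 (MRPL51) in WT exponential cells. In WT exponential cells they ran from 35.2 ± 2.0 rescaled TPM (SD, n = 3) for MRPL24, the counterpart of bacterial bL28, to 112 ± 7 for MRPL51, a protein with no bacterial counterpart. MRPL31 at 96.9 ± 1.5 and MRPL33 at 91.6 ± 0.7 followed MRPL51, and MRPL4 at 40.9 ± 4.3 and MRPL35 at 41.8 ± 0.8 stood just above MRPL24. In that order 24 of 32 neighbouring pairs, MRPL35 and MRPL4 among them, differed by less than the larger of their SDs. Together the 33 made up 0.224% of nuclear transcripts in WT exponential cells, against a range over groups of 0.051% in NaCl to 0.849% at 16 h of the time course. The NaCl value cannot be read as a change, since strain, temperature and library kit differ there and no untreated sample stands beside it. The mean log2(rescaled TPM + 1) over the 33 members, called here the MRPL mean, was 6.05 in WT exponential cells, lay between 6.01 and 6.56 over the strains of exp5 and between 6.48 and 6.95 in the chemostat, and reached 7.81 at 16 h.

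**Figure D2:**
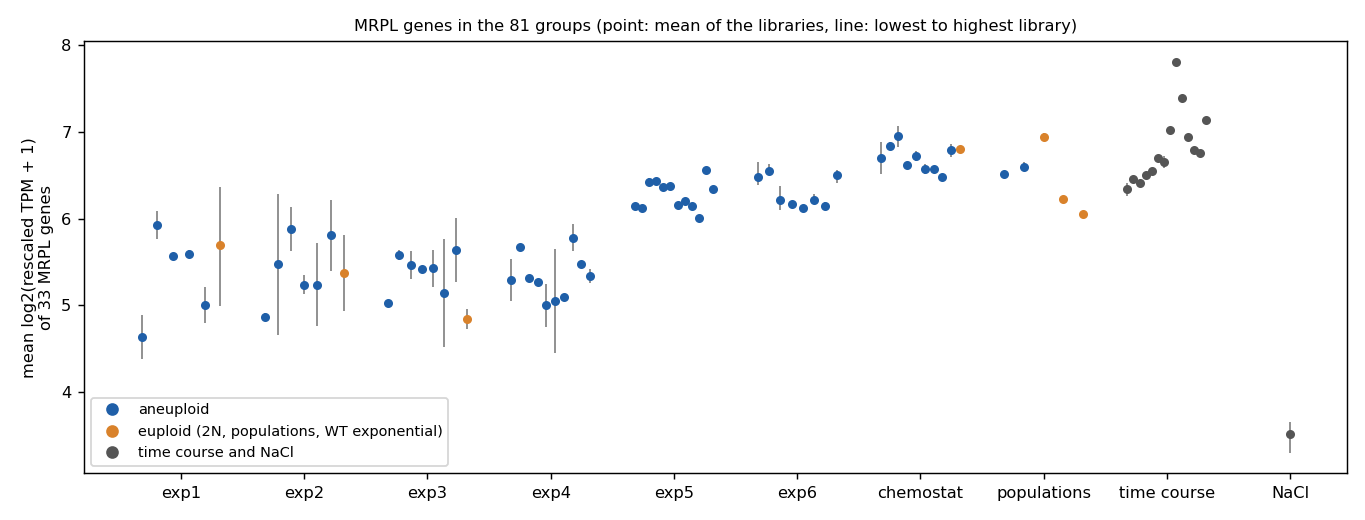
MRPL mean (mean log2(rescaled TPM + 1) of the 33 genes, vertical axis) in each of the 81 groups, arranged by experiment (time course groups run by time). Points are means of the libraries and lines run from the lowest to the highest library (A20 and A25 of exp4 have 1 library and no line). Groups of exp1 to exp4 lie lower than those of exp5 and exp6, and NaCl lies lowest, at 3.52. Exp1 to exp4 are total RNA, NaCl differs in strain, temperature and kit, and entries listed at 0 lower the mean in both. Heights are therefore not compared between sets. By summed share of nuclear transcripts exp1 to exp4 overlap exp5, as A20 in exp1 (0.296%) and A35 in exp5 (0.226%). The longest line is that of A20 in exp2 (4.66 to 6.28), but some groups of exp1 to exp4 have short lines, as A22 in exp4 (5.268 to 5.274).

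The pooled populations asked how aneuploidy changes expression when many karyotypes are mixed, and whether the answer depends on the way of growth. By the Tsai protocol, 29 of 33 members were lower in aneuploid than in euploid populations and 1 was higher, where 39.7% of all genes were called lower and 38% higher. By the dilution protocol 30 were higher and 0 lower, where 62.4% of all genes were called higher and 15.9% lower. The median over members was -0.42 in the Tsai comparison, against -0.01 over all genes, and 0.40 in the dilution comparison, against 0.26 over all genes.

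MRPL28, a protein of the central protuberance without a bacterial counterpart, had 61.9, 62.2 and 59.9 rescaled TPM in Tsai aneuploid populations, against 109.9, 109 and 115 in Tsai euploid populations. The groups did not overlap, and it was the member with the lowest difference, -0.85 ± 0.06 (limma adjusted p = 2.79e-09). MRPL24 had 59.0, 61.4 and 64.5 in aneuploid populations, against 108, 110.1 and 113 in euploid populations (-0.83 ± 0.07, limma adjusted p = 1.09e-08). MRPL23, the counterpart of bacterial uL13, had 92.9, 95.8 and 91.6 in aneuploid populations, against 149, 157 and 165 in euploid populations (-0.74 ± 0.07). MRPL35, another protein of the central protuberance without a bacterial counterpart, had 53.2, 54.6 and 54.7 in aneuploid populations, against 91.9, 88.8 and 92.9 in euploid populations (-0.74 ± 0.05). In each of these 3 genes too, every aneuploid library lay below every euploid library.

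Another 4 members, named here in each of the main comparisons, were called lower too. MRPL36 (bL31, in the central protuberance) had 134, 143 and 143 rescaled TPM in Tsai aneuploid populations, against 193, 191 and 191 in Tsai euploid populations, a difference of -0.45 ± 0.06. MRPL11 (uL10, the base of the stalk) had 64.2, 54.5 and 62.0 in aneuploid populations, against 78.3, 86.5 and 80.9 in euploid populations (-0.44 ± 0.06). MRPL32 (bL32, which the m-AAA protease trims before assembly) differed by -0.43 ± 0.09, with 65.9, 65.7 and 62.1 in aneuploid populations, against 89.4, 85.7 and 87.1 in euploid populations. MRPL22 (uL22, which lines the exit tunnel) differed by -0.31 ± 0.07, with 90.6, 87.2 and 90.0 in aneuploid populations, against 109, 103 and 122 in euploid populations. None of these 4 overlapped between the groups.

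MRPL3, a protein without a bacterial counterpart that belongs to a family of double-stranded RNA ribonucleases, went the other way: 66.8, 68.9 and 67.7 rescaled TPM in Tsai aneuploid populations, against 61.7, 62.1 and 63.5 in Tsai euploid populations (0.12 ± 0.05, limma adjusted p = 0.0417). The groups did not overlap, but the call was lost when any 1 of the 6 Tsai libraries was left out (differences of 0.11 to 0.13). MRPL4, MRPL27 and MRPL44 did not pass. A single gene called lower is common here, but 29 of 33 is not near the background. The 20 members with a bacterial counterpart (19 lower, median -0.44) and the 13 without (10 lower, 1 higher, median -0.40) had like medians.

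In the dilution comparison MRPL39, the counterpart of bacterial bL33, was highest: it had 152, 169 and 149.8 rescaled TPM in dilution aneuploid populations, against 101, 107 and 90.9 in dilution euploid populations (0.65 ± 0.06, limma adjusted p = 4.19e-08). MRPL27, without a bacterial counterpart, had 119, 104 and 107 in aneuploid populations, against 78.4, 67.3 and 69.1 in euploid populations (0.62 ± 0.07). MRPL3 had 72.8, 77.0 and 82.9 in aneuploid populations, against 48.6, 49.4 and 53.3 in euploid populations (0.61 ± 0.05). In all 3 the groups were apart. MRPL32 had 91.2, 66.8 and 76.5 in aneuploid populations, against 50.9, 51.5 and 50.8 in euploid populations (0.59 ± 0.09), also without overlap. The members that did not pass were MRPL23 (-0.06), MRPL28 (0.14) and MRPL35 (0.10), and these are among the 4 members with the lowest Tsai differences.

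The background of the dilution comparison was itself mostly higher. The median of all genes moved by 0.26, and relative to it the median of the members was 0.14. With each library centred on its median, 16 members were called higher and 3 lower in place of 30 and 0. The Tsai counts were 1 higher and 29 lower with and without centring, and 1 and 25 with cytosolic ribosomal protein genes left out of the scaling.

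The difference between the protocols was tested directly as an interaction, the Tsai aneuploid effect minus the dilution aneuploid effect. It was below 0 in 33 of 33 members and called in all of them, with a range of -1.32 to -0.25 and a median of -0.80, or -0.49 relative to the median of all genes (-0.31). Of all genes, 55.9% were called below 0 and 24% above. MRPL24 differed most (-1.32 ± 0.10, limma adjusted p = 2.60e-09), since the dilution populations had 69.4, 76.9 and 76.4 rescaled TPM when aneuploid, against 57.8, 54.3 and 46.3 when euploid. MRPL16 (uL16, near where tRNAs bind) followed at -1.12 ± 0.09. It had 97.7, 87.4 and 95.8 in Tsai aneuploid populations, against 136, 137 and 145 in Tsai euploid populations, and 92.5, 99.4 and 111 in dilution aneuploid populations, against 73.6, 66.0 and 67.0 in dilution euploid populations. MRPL39 was at -1.07 ± 0.08 and MRPL32 at -1.03 ± 0.13. With libraries centred 31 members were called below 0, and with cytosolic ribosomal protein genes left out of the scaling 32.

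Other genes of mitochondrial translation were described by the same counts. In the Tsai comparison 11 of 11 other large subunit genes, 29 of 31 small subunit genes and 9 of 13 translation factor genes were lower, with medians of -0.43, -0.47 and -0.42. Among them were MRPL1 (-0.85 ± 0.05), RSM10 (-0.92 ± 0.05) and TUF1 (-0.84 ± 0.04), the mitochondrial elongation factor Tu. By the dilution protocol 8 of 11, 28 of 31 and 10 of 13 were higher, among them YML6 (0.79 ± 0.06), MRPS17 (0.75 ± 0.07) and MEF2 (0.80 ± 0.08), while the translation factor list gene MDM38 was lower (-0.22 ± 0.04). With 62.4% of all genes called higher there, the counts of the large subunit and translation factor lists are near the background. Cytosolic ribosomal protein genes had the opposite signs: 132 of 138 were higher and 3 lower in Tsai aneuploid populations, and 5 were higher and 126 lower in dilution aneuploid populations.

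**Figure D3:**
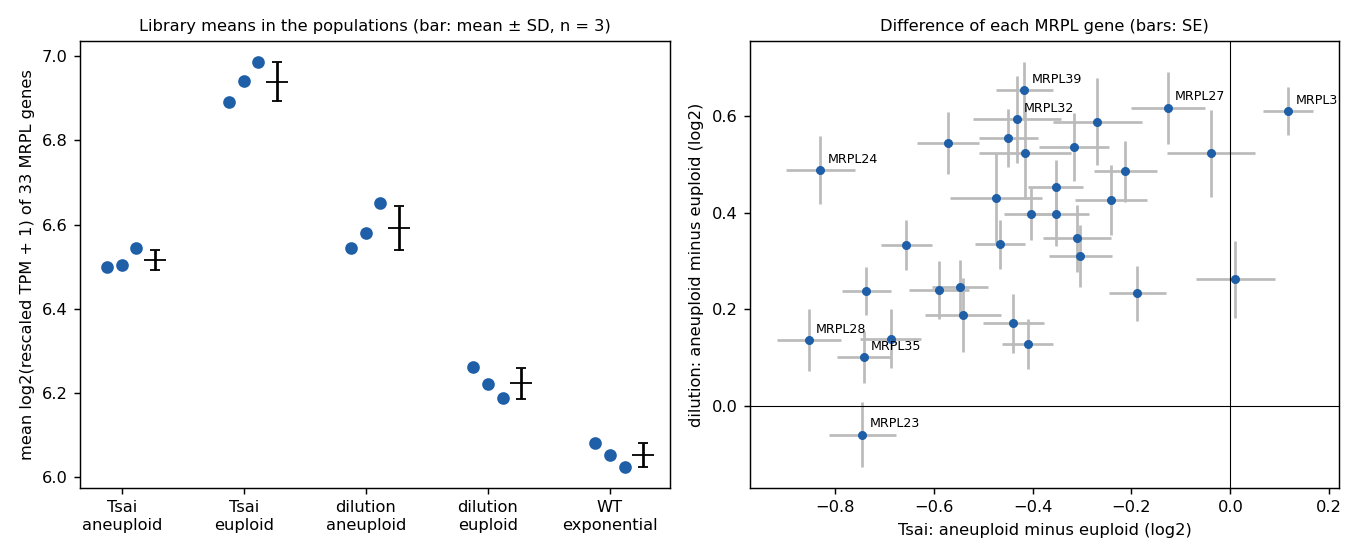
Left, MRPL mean (log2(rescaled TPM + 1), vertical axis) in each library of the 4 populations and WT exponential cells, with mean ± SD (n = 3). Right, aneuploid minus euploid difference (log2, with SE) of each MRPL gene by the Tsai protocol (horizontal) and the dilution protocol (vertical): 30 of 33 genes lie below 0 on the first and above 0 on the second. Tsai euploid populations stand highest on the left, at 6.94.

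Set against exponentially growing WT cells, the euploid populations themselves differed by protocol. These comparisons share the WT libraries with each other and each euploid population with the comparisons above. WT is the haploid A2050, while the populations came from another parent, which held a plasmid, and were grown by the protocols. Strain, plasmid and growth cannot be told apart here. The MRPL mean was 6.94 in Tsai euploid populations and 6.22 in dilution euploid populations, against 6.05 in WT exponential cells, while aneuploid populations were at 6.52 (Tsai) and 6.59 (dilution). All 33 members were higher in Tsai euploid populations than in WT exponential cells, where 44.9% of all genes were called higher, with a median of 0.93 against 0.04 for all genes.

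MRPL24 had 108, 110.1 and 113 rescaled TPM in Tsai euploid populations, against 35.3, 37.2 and 33.2 in WT exponential cells, a difference of 1.62 ± 0.07 (limma adjusted p = 5.66e-13). MRPL38, the counterpart of bacterial uL14, had 177, 185 and 190.3 in Tsai euploid populations, against 84.7, 78.1 and 70.7 in WT exponential cells (1.24 ± 0.07). MRPL23 differed by 1.27 ± 0.07 and MRPL28 by 1.23 ± 0.06. No library of one group reached the other in these 4 genes.

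In dilution euploid populations 16 members were higher and 1 lower than in WT exponential cells, at backgrounds of 29.2% and 45.1%. MRPL38 led, with 112, 117 and 126 rescaled TPM in dilution euploid populations, against 84.7, 78.1 and 70.7 in WT exponential cells (0.60 ± 0.07). MRPL24 (0.57 ± 0.07), MRPL28 (0.56 ± 0.06) and MRPL13, without a bacterial counterpart (0.51 ± 0.05), came next. MRPL20, also without a bacterial counterpart, was the member called lower, with 70.6, 66.3 and 61.1 in dilution euploid populations, against 86.3, 89.5 and 83.7 in WT exponential cells (-0.39 ± 0.06, limma adjusted p = 3.42e-05). The groups did not overlap in MRPL38 or MRPL20.

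The time course of WT haploid cells followed the same genes as a culture aged. All 33 members differed over the 14 times (F test, limma), as did 89.3% of all genes. From 0 h to 26 h in steps of 2 h, the MRPL mean was 6.34, 6.46, 6.42, 6.50, 6.55, 6.70, 6.66, 7.02, 7.81, 7.40, 6.95, 6.79, 6.76 and 7.13. It rose slowly up to 12 h, stepped up to a peak at 16 h, fell until 24 h and was higher again at 26 h. The highest mean lay at 16 h for 26 members, at 18 h for 6 and at 24 h for MRPL24, whereas 21.2% of all genes had theirs at 16 h and 13.4% at 18 h.

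Early on little changed. At 6 and 8 h, against 0 and 2 h, MRPL28 was the only member called, with 130.5 and 116 rescaled TPM at 6 h and 111 and 125 at 8 h, against 96.5 and 97.6 at 0 h and 69.8 and 93.0 at 2 h (0.44 ± 0.13, limma adjusted p = 0.0488). Of all genes, 4.25% were called higher and 0.835% lower, and 4 members had an unadjusted p under 0.05. The call was lost when any 1 of 7 of the 8 libraries was left out (the exception was 2 h replicate 2), and under 6 other settings no member was called.

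At 14 h, against 10 and 12 h, 7 members were higher and 0 lower, at backgrounds of 11.6% and 5.9%. MRPL51 had 326 and 354 rescaled TPM at 14 h, against 209 and 205 at 10 h and 222 and 187 at 12 h (0.72 ± 0.13, limma adjusted p = 0.000487). Both 14 h libraries were above all 4 earlier ones. MRPL39 had 293 and 193 at 14 h, against 116 and 142 at 10 h and 191 and 115 at 12 h (0.78 ± 0.20), so its 14 h replicate 2 lay only just above a 12 h library, and without 14 h replicate 1 the difference was 0.48 and not called. MRPL25, without a bacterial counterpart, rose by 0.60 ± 0.14, and MRPL50 (bL9, a long protein that reaches out from the subunit in bacteria) by 0.49 ± 0.13. Without 14 h replicate 2, MRPL25 (0.44) and MRPL50 (0.41) were not called. Without 14 h replicate 1 the count was 4, and without 14 h replicate 2 it was 3. With the values as deposited no member was called.

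The next contrast set 16 h against 14 h. At 16 h, 25 members were higher and 0 lower, where 38.5% of all genes were called higher and 22.6% lower. The median over members was 0.78, or 0.50 relative to the median of all genes (0.27). MRPL38 had 352 and 369.7 rescaled TPM at 16 h, against 108 and 128 at 14 h (1.61 ± 0.20, limma adjusted p = 1.27e-06). MRPL28 had 410.2 and 423 at 16 h, against 158 and 153 at 14 h (1.42 ± 0.18). MRPL25 had 324 and 273 at 16 h, against 102 and 128 at 14 h (1.37 ± 0.17). MRPL24 rose by 1.35 ± 0.24, MRPL36 by 1.25 ± 0.16, MRPL35 by 0.85 ± 0.24 and MRPL22 by 0.79 ± 0.16. In these 7 genes both 16 h libraries were above both 14 h libraries.

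Among the members named in each main comparison, 3 did not pass. MRPL32 had 131 and 115 rescaled TPM at 16 h, against 97.1 and 109 at 14 h (0.25 ± 0.47), with both 16 h libraries above the 14 h ones. MRPL11 had 109 and 99.7 at 16 h, against 96.1 and 100.1 at 14 h (0.09 ± 0.22), and its groups overlapped. MRPL3 had 60.7 and 58.7 at 16 h, against 59.8 and 51 at 14 h (0.11 ± 0.16), again with overlap. MRPL13, MRPL20, MRPL27, MRPL31 and MRPL40 did not pass either.

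At this step the scale matters, because cytosolic ribosomal protein genes held 3.89% of nuclear transcripts at 16 h, against 36.5% at 14 h, and 135 of 138 were called lower (median -3.54). Scaled without them, the median of all genes was -0.27 and that of the members 0.18, 9 members were called higher, and MRPL3 was called lower (-0.48, limma adjusted p = 0.0128), so that MRPL3, MRPL11 and MRPL32 had negative differences on that scale and, too, with libraries centred. As deposited, with no rescaling, 2 members were called. Small subunit genes (22 of 31 higher), other large subunit genes (10 of 11) and translation factor genes (11 of 13) had counts like those of the members. Examples are MRPS12 (1.71 ± 0.17), YML6 (1.18 ± 0.18) and AIM23 (1.41 ± 0.20).

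After 18 h the members parted. At 22 to 26 h, against 18 and 20 h, 17 were called lower and 0 higher, where 21.3% of all genes were called lower and 13.2% higher, and the median was -0.29 against -0.10 for all genes. MRPL17, without a bacterial counterpart, had 236.3 and 193 rescaled TPM at 18 h, 132 and 108 at 20 h, 96.9 and 99.6 at 22 h, 101 and 118 at 24 h, and 50.3 and 89.9 at 26 h (-0.82 ± 0.13 for the late times, limma adjusted p = 9.51e-05). Only its 24 h replicate 2 lay above the lower 20 h library. MRPL38 changed by -0.72 ± 0.13, MRPL50 by -0.69 ± 0.09 and MRPL36 by -0.61 ± 0.11. In MRPL36 every one of the 6 late libraries was below the 4 earlier ones. With the 4 libraries in which nuclear genes held under 50% of the deposited total left out, 19 members were lower and 1 higher.

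MRPL24 was not among them (0.08 ± 0.15). It had 248 and 195 rescaled TPM at 16 h, 350.4 and 322 at 18 h, 305 and 419 at 20 h, 354 and 321 at 22 h, 359 and 477 at 24 h, and 372 and 337 at 26 h, after 57.8 and 37.9 at 0 h. Its range over times, 3.12 on the log2 scale, was the widest of the 33, which ran from 0.99 (MRPL9, uL3) to 3.12. MRPL28 had the next widest, 2.41.

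In MRPL3, MRPL11, MRPL27, MRPL32 and MRPL39 both 20 h libraries stood below both 0 h libraries. A late low was not limited to them. The lowest mean of all times lay at 24 h for MRPL9, MRPL13, MRPL19, MRPL40 and MRPL49, and at 22 h for MRPL20 and MRPL44. MRPL32 had 60.7 and 51.5 rescaled TPM at 0 h, 43.7 and 43.9 at 18 h, 34.3 and 22.3 at 20 h, 34.9 and 36.9 at 22 h, 23.7 and 148 at 24 h and 66.5 and 68.1 at 26 h, where the 24 h libraries stand far apart from each other. MRPL3 had 39.8 and 37.4 at 0 h, 23.2 and 23.4 at 20 h and 23.5 and 22.2 at 24 h. MRPL11 had 71.1 and 55.1 at 0 h, 31.9 and 42.8 at 20 h and 40.3 and 35.5 at 24 h, and MRPL39 had 110.3 and 113 at 0 h and 108 and 90.3 at 20 h. Across the 28 libraries, which share the scaling and the time axis, the correlation (Pearson's r) with the mean of the other members was 0.21 (MRPL3), 0.16 (MRPL11), 0.26 (MRPL27), 0.09 (MRPL32) and 0.80 (MRPL39), as a description. It was under 0.5 for 6 members, among them also MRPL19 (0.46) and MRPL20 (0.45). It was at least 0.7 for 25 members, with a median of 0.81 and the highest value at MRPL6 (0.96), the counterpart of bacterial uL6.

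**Figure D4:**
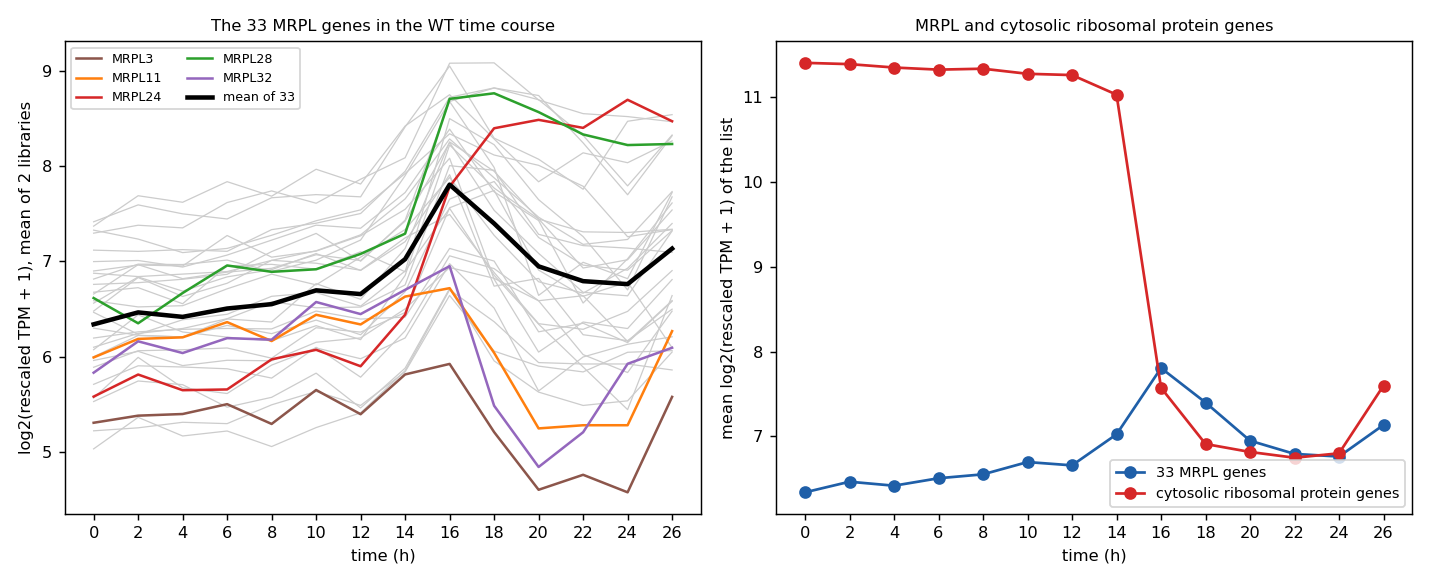
Left, log2(rescaled TPM + 1) of each MRPL gene (mean of 2 libraries) over time (h) in WT haploid cells, with 5 genes in colour and the mean of the 33 in black. Right, the mean over the MRPL genes (blue) and over 138 cytosolic ribosomal protein genes (red) on the same scale: the first peaks at 16 h at 7.81, where the second has dropped to 7.57.

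The single strains allow a member to be set beside the other genes of its chromosome. No karyotype or copy number was used: the value of a chromosome is the median RNA difference of its other genes in the same libraries. The 33 members lie on 12 of the 16 nuclear chromosomes, with 5 each on XIII and XIV, 4 each on II, IV and XI, 2 each on VII, X, XII and XVI, and 1 each on III, VIII and XV. In exp5, 33 of 33 members differed among 12 strains (F test, limma), where 99.3% of all genes did, and in exp6, 31 of 33 among 8 strains (all but MRPL4 and MRPL51), where 95.4% did. MRPL44 had the widest range over strains in exp5, 1.57 (log2), and MRPL49 (bL21) in exp6, 1.50. With each library centred on the median of each chromosome, 33 and 30 members still passed, where 90% and 85.7% of all genes did.

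In A26, the genes on chromosome XIV stood 0.41 (exp5) and 0.40 (exp6) above the mean of the strains, on the log2 scale and relative to all genes. The 5 members there were all higher in A26: in exp5 MRPL10 by 0.45, MRPL17 by 0.49, MRPL19 by 0.62, MRPL22 by 0.49 and MRPL50 by 0.44. In exp6 they were higher by 0.53, 0.46, 0.55, 0.62 and 0.79. In A24 (exp5), where XIV stood at 0.47, the same 5 ran from 0.27 (MRPL10) to 0.46 (MRPL22).

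Chromosome IV stood at 0.50 in A34 in exp5 and at 0.40 in exp6. Its 4 members MRPL7 (uL5), MRPL11, MRPL28 and MRPL35 were at 0.56, 0.39, 0.34 and 0.49 in exp5, but at 0.13, 0.01, 0.06 and 0.20 in exp6. Chromosome XIII stood at 0.41 in A1, where MRPL3 was at 0.31 and MRPL24 at 0.37 but MRPL39 at -0.004 and MRPL44 at 0.07. A member on a high chromosome was thus not always high itself.

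Over all members and strains, 71 of 75 values on chromosomes at or above 0.25 were above 0 in exp5 (median 0.35), and 49 of 53 on chromosomes at or below -0.25 were below 0 (median -0.32). In exp6 these were 41 of 43 and 43 of 46. As a description, the correlation between a member and the median of its chromosome was 0.80 in exp5 (396 points), 0.76 in exp6 (264) and 0.59 in the chemostat (297), where points share libraries, strains and chromosomes. A32 and A34 had nearly the same chromosome values in exp5, as IV at 0.47 and 0.50 and XIII at -0.26 and -0.27. They therefore enter these counts as near-repeats of each other. In exp5 the SD of the member values was 0.32, and 0.19 once the chromosome median had been taken off. For the 8 strains in both experiments, 226 of 264 member values had the same sign and r was 0.84. The mean over members turned sign in A29 (0.06 in exp5 and -0.09 in exp6) and A30 (0.07 in exp5 and -0.13 in exp6).

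**Figure D5:**
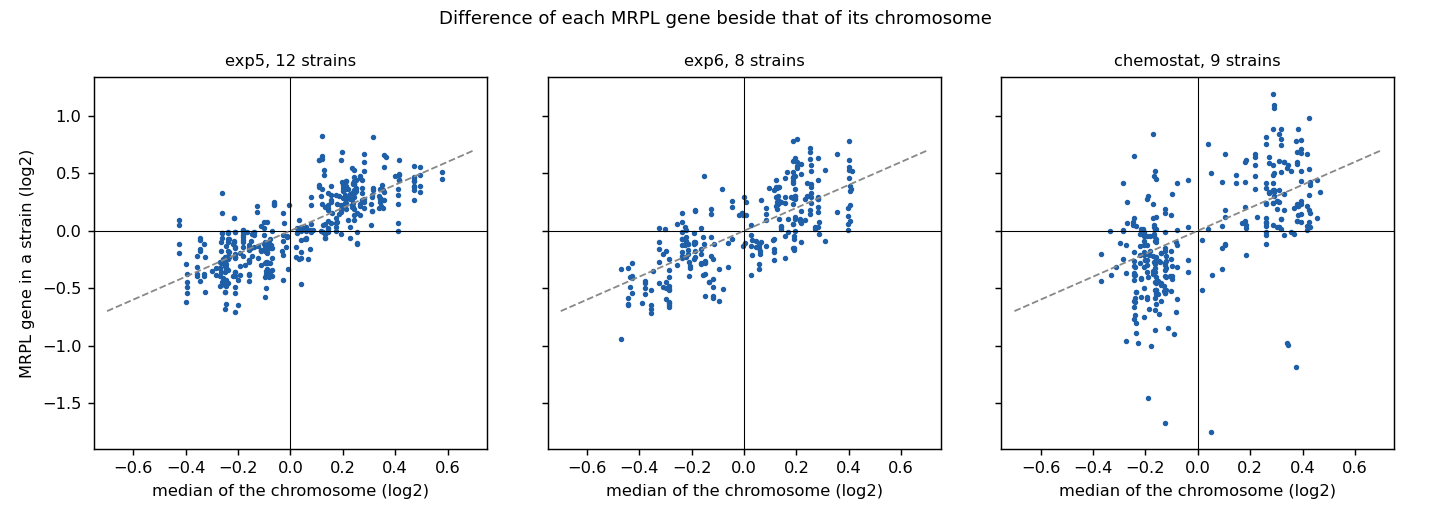
Difference (log2, relative to all genes) of each MRPL gene in each strain (vertical) against the median difference of the genes of its chromosome (horizontal), in exp5 and exp6 (from the mean of the strains) and the chemostat (from 2N). The dashed line marks equality; points lie along it in exp5 and exp6 and scatter more in the chemostat, where the 4 lowest points, down to -1.75, are MRPL25.

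Set against 2N in batch culture (exp1 to exp3, 36 libraries of 10 aneuploid strains and 8 of 2N), 0 of the 32 members tested with limma were called, and 2 had an unadjusted p under 0.05 (MRPL6 and MRPL11). Of all genes, 6.38% were called, 3.95% higher and 2.43% lower. The SE of a member ran from 0.19 to 1.27 with a median of 0.49, so that precision differed widely between members. MRPL38 was not tested, since its mean was under 3 on the log2 scale. It was listed at 0 in 22 of 36 aneuploid and 3 of 8 2N libraries, although its chemostat libraries ran from 97.3 to 299 rescaled TPM. Over exp1 to exp4, MRPL38 was listed at 0 in 39 libraries, MRPL51 in 26 and MRPL44 in 18, and outside exp1 to exp4 and NaCl no member was listed at 0.

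For MRPL32 the aneuploid libraries ran from listed at 0 to 127 rescaled TPM with a median of 39.3, and those of 2N from 22.5 to 97.7 with a median of 45.4 (-0.30 ± 0.63). For MRPL11 they ran from listed at 0 to 102 with a median of 31.7 when aneuploid, and from 12.7 to 128 with a median of 47.3 in 2N (-0.79 ± 0.33, limma adjusted p = 0.167). The groups overlapped widely in both. MRPL3 differed by 0.23 ± 0.20, MRPL22 by 0.26 ± 0.21, MRPL35 by 0.20 ± 0.43 and MRPL36 by 0.04 ± 0.30. Taken strain by strain, MRPL3 (0.82 ± 0.26) and MRPL10 (1.16 ± 0.38) were higher in A20 (13.5% of all genes called), and MRPL22 was higher in A21 (0.81 ± 0.27, 18.4%). In the chemostat libraries of these strains, the chromosomes of these members stood above 2N relative to all genes. In A20, XIII (MRPL3) stood at 0.33 and XIV (MRPL10) at 0.39, and in A21, XIV (MRPL22) stood at 0.22. MRPL15 was called lower in A19 (8.66%), where it was listed at 0 in 3 libraries and had 12.8 rescaled TPM in the other, against 24.9, 0, 57.5, 57.4, 31.8, 70.0, 28.0 and 27.3 in 2N. MRPL11 was called lower in A35 (1.43%), where it was listed at 0 in exp1 replicate 1 and had 13.5 in exp1 replicate 2, against 12.7 to 128 in 2N. These calls rest on values listed at 0, so no fold is given. The other 6 strains had no member called by limma, at backgrounds of 0.389% (A1), 5.23% (A18), 8.01% (A22), 15.6% (A23), 1.21% (A25) and 1.97% (A27).

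In the chemostat, where 2N and the aneuploid strains were held to the same dilution rate, 1 member was higher and 2 were lower than in 2N, against 3.83% and 8.05% of all genes. With strain as a random block, 0 members and 0% of all genes were called by limma (9 members had an unadjusted p under 0.05 without the block). MRPL19 (uL11, at the stalk) ran from 97.5 to 192 rescaled TPM in the 18 aneuploid libraries with a median of 147, against 86.4 and 108 in 2N (0.57 ± 0.16, limma adjusted p = 0.0321), so that the groups overlapped. MRPL32 ran from 41.3 to 80.3 with a median of 52.5 in aneuploid libraries, all below the 88.4 and 109 in 2N (-0.80 ± 0.14, limma adjusted p = 0.00416). The other genes of its chromosome, III, stood below 2N too, relative to all genes, in every aneuploid strain. Their median ran from -0.33 in A23 to -0.09 in A34.

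MRPL25 split the aneuploid strains. It had 139 and 145 rescaled TPM in A20, 134 and 103 in A21 and 82.5 and 100.2 in A23, but 47.8 and 42.4 in A18, 40.1 and 25.3 in A22, 67.6 and 38.4 in A24, 32 and 29.4 in A34, 75.1 and 30.3 in A37 and 42.0 and 38.4 in A38, against 113 and 102 in 2N (-0.89 ± 0.26, limma adjusted p = 0.0421). The libraries of A20, A21, A23 and 2N carry the code d204 and the others d236, and the 2 codes do not overlap in MRPL25. Within d204 the MRPL25 difference was 0.10, that of MRPL32 -0.46 and that of MRPL19 0.59, and none was called. Strain and library code cannot be told apart for the other strains.

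With chromosomes centred no member was called in the chemostat, and without 2N replicate 2 none was either. Libraries centred on their medians gave 2 higher and 1 lower in place of 1 and 2, and the values as deposited 0 higher and 4 lower, so that the call of MRPL19 was lost. By strain, A37 had 12 members lower and 2 higher (19.9% of all genes called), A34 6 and 0 (13.4%), A24 4 and 1 (13.9%), A22 3 and 2 (16.5%), A18 2 and 2 (14.7%), A38 2 and 1 (16.4%), A23 0 and 2 (8.16%), A20 1 and 0 (9.97%) and A21 0 and 0 (12.6%).

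MRPL32 was lower in 6 of 9 strains taken singly, from -0.92 ± 0.19 in A24 to -1.13 ± 0.19 in A37, and these were the 6 with the code d236. MRPL25 was lower in 5 of them, the lowest being A34 (-1.77 ± 0.35). MRPL15, without a bacterial counterpart, was lower in A22, A24, A34 and A37, with A37 at -0.85 ± 0.22. MRPL19 was higher in A22, A24 and A37, with A24 at 0.92 ± 0.21. Of the strains with the code d204, A23 had MRPL31 (1.08 ± 0.26) and MRPL17 (0.78 ± 0.19) higher, and A20 had MRPL28 lower (-0.70 ± 0.20). Relative to all genes, their chromosomes stood at 0.29 (XI, MRPL31) and 0.32 (XIV, MRPL17) in A23 and at -0.21 (IV, MRPL28) in A20. The chromosome of MRPL19 (XIV) stood at 0.42 in A24 and that of MRPL25 (VII) at -0.125 in A34. In A37, those of MRPL15 (XII) and MRPL32 (III) stood at -0.19 and -0.28.

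Chemostat and batch culture were compared in A24, A34 and A38, each with 2 chemostat libraries and 2 of exp5. There 24 members were higher and 2 lower in the chemostat, against 64.4% and 16.4% of all genes, a share near the background for the higher ones. The median of the members was 0.46 and that of all genes 0.67, so relative to all genes the members were lower, by a median of -0.21. The direction flips with the scale: 4 were higher and 21 lower with libraries centred, and 5 higher and 21 lower when cytosolic ribosomal protein genes, 135 of 138 of them called lower in the chemostat, were left out of the scaling. Growth and library code cannot be told apart here. The chromosome values differed as well, though exp5 values are from the mean of the strains and chemostat values from 2N. Chromosome IV, with MRPL7, MRPL11, MRPL28 and MRPL35, stood at 0.50 in A34 in exp5 but at -0.10 in the chemostat. In A38 it stood at 0.34 and 0.09. Whether the chromosome content of a strain differed between the 2 sets was not tested.

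Some members differed by more than any of these shifts. MRPL4 (uL29, at the tunnel exit) had 78.2 and 95.9 rescaled TPM in A24, 85.7 and 105 in A34 and 76.0 and 86.0 in A38 in the chemostat, against 28.9 and 36.0 in A24, 29.2 and 26.2 in A34 and 27.4 and 26.8 in A38 in batch (1.56 ± 0.10, limma adjusted p = 3.11e-08). Every chemostat library was above every batch library. MRPL44 (1.16 ± 0.09), MRPL24 (1.08 ± 0.09) and MRPL36 (1.03 ± 0.09) followed, while MRPL25 (-0.68 ± 0.12) and MRPL49 (-0.48 ± 0.13) were lower. MRPL25 had 67.6 and 38.4 in A24, 32 and 29.4 in A34 and 42.0 and 38.4 in A38 in the chemostat, against 85.8 and 80.4 in A24, 52.9 and 45.2 in A34 and 71.7 and 59.2 in A38 in batch.

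In the NaCl-treated W303 cells the MRPL mean was 3.29 to 3.66. MRPL38 was listed at 0 in all 3 libraries. MRPL36 had 36.5, 46.9 and 12.9 rescaled TPM and MRPL24 had 15.2, 22.3 and 17.2. Of 3223 genes with a mean of at least 5 on the log2 scale, 88 to 113 were listed at 0 in these libraries. No untreated W303 library stands beside them, and strain, temperature and library kit differ from the other sets. Where these levels stand lowest among the groups, that is therefore a description and no measured effect of NaCl.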

How the data were processed

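The authors' deposited table holds, per its values and the labels, log2(TPM + 1) for 6692 genes in 176 libraries. Per the submitters' processing notes, reads were aligned to sacCer3 with STAR 2.5.3a and expression was estimated with RSEM 1.3.0. Per the labels, exp1 to exp4 are total RNA and the other sets poly(A) RNA, and kits differ (Truseq or KAPA). Reads were not analysed here, so depth and counting error are unknown, and an exact 0 may be a failed estimate.

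Because deposited totals over nuclear genes vary widely, deposited log2 values were turned back to TPM, scaled to 1000000 over 6664 nuclear genes and set to log2(TPM + 1). Low genes' fold changes are understated on this scale. limma 3.58.1 (R 4.3.3, trended prior) was fitted after a filter at a mean of 3, with Benjamini-Hochberg adjustment over all genes tested. The batch fit had a term for the experiment, and the 4 populations and WT shared a fit, as did the 14 times. Groups came from the labels. The script was tested on simulated data. Title and strain field conflict for A18 replicate 2 (exp4) and A24 replicate 2 (chemostat). The title was used, since the profile over chromosomes correlated with that of the same title's replicate 1 at 0.991 and 0.977. Titles of the d236 chemostat libraries hold a further code that no label explains. It recurs across strains, and both A24 titles have F10. Titles put the last sampling at 26 h, and library codes at 28 h.

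Members and lists were chosen with earlier results of these data known. Named are up to 4 called members with the largest change in each direction, and MRPL3, MRPL11, MRPL22, MRPL32, MRPL35 and MRPL36 in the batch, 16 h and Tsai comparisons. Other members were named after their values were seen (MRPL4, MRPL24 and MRPL27 in the time course or the sequence and chromosome accounts, among others). The lists of other large subunit genes (11), small subunit genes (31), translation factors (13) and cytosolic ribosomal protein genes (138) are described by counts. The translation factor list also holds OXA1, MBA1, MDM38, MTG1 and MTG2, which are not translation factors. The cytosolic list, picked by symbol, also holds RPP1, which is not a ribosomal protein gene. Sequences were read from the RefSeq genome R64. Alternatives were scaling, pseudocounts of 0.1 and 10, filters, blocks, chromosome centring, single experiments and leaving out each library. Scaling without cytosolic ribosomal protein genes, and the late times without low-total libraries, were chosen after seeing the data. Tables and figures were made with Python 3.11.15, numpy 2.4.6, pandas 2.3.3 and matplotlib 3.10.9.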

Additional observations from a re-analysis of the deposited data

Results flagged for a closer look

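The effect of aneuploidy on the members differed between the protocols in a test of the difference itself: the Tsai effect was below the dilution effect in 33 of 33 members tested, each called by limma. The largest such differences were -1.318 for MRPL24, -1.115 for MRPL16, -1.071 for MRPL39 and -1.025 for MRPL32 (log2).

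In the 4 libraries of 2N in exp1, 1 library stood apart from the other 3 in MRPL27 (gap over range 0.853) and MRPL33 (0.884), above Dixon's 95% critical value for 4 values. Chance gives this in about 1 in 20 such groups, and it was seen in 2 of 33 members.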

How the results depend on the processing

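Counts are of members called, and each p is limma's. The Tsai and dilution counts, their interaction and the euploid populations against WT kept direction and stayed within 1.5 times of the reported count under all settings run, except the dilution comparison with libraries centred (19 called). In batch 1 member was called with the replicate block, with chromosomes centred and in exp3 alone. The chemostat count turned from mostly lower to mostly higher with libraries centred (3 called), and was 0 with strain as a random block, with chromosomes centred and within d204. For 6 and 8 h the count was 0 with deposited values, libraries centred, a pseudocount of 10, no filter, the replicate block and scaling without cytosolic ribosomal protein genes, and 2 with a filter at 5. For 14 h it was 0 as deposited and 3 without cytosolic ribosomal protein genes. For 16 h it was 2 and 10 under these settings, and for 22 to 26 h it was 32 as deposited. Chemostat against batch turned in direction with libraries centred (25 called) and without cytosolic ribosomal protein genes (26 called). Causes were not tested.

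Leaving out 1 library each gave 0 to 1 in batch, 0 to 4 in the chemostat, 28 to 30 (Tsai), 26 to 32 (dilution), 0 to 1 (6 and 8 h), 3 to 10 (14 h), 21 to 23 (16 h) and 12 to 19 (22 to 26 h). It turned MRPL36 (-0.04 to 0.15) and MRPL35 (-0.014 to 0.445) in batch, and MRPL3 at 16 h (-0.002 to 0.22). Single genes under the other settings were 485 unturned with the call unchanged, 30 with the call lost and 14 turned. In batch these were MRPL36 at -0.038 (random block), -0.065 (chromosomes centred) and -0.320 (exp1 alone), MRPL32 at 0.001 (chromosomes centred), MRPL3 at -0.209 and MRPL35 at -0.112 (exp1 alone) and MRPL22 at -0.007 (exp3 alone). The chemostat MRPL25 was at 0.101 (d204). At 16 h, MRPL32, MRPL11 and MRPL3 were at -0.023, -0.183 and -0.161 with libraries centred and at -0.345, -0.504 and -0.479 without cytosolic ribosomal protein genes.

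Deviations of same-numbered replicates correlated over 0.1 in 2 of 128 pairs in batch, 30 of 90 in the chemostat (-0.62 to 0.51), 2 of 30 in the populations, 6 of 182 in the time course, 18 of 132 in exp5 and 16 of 84 in exp6. Since not every pair did in any set, the numbers were not taken to pair samples. With the replicate block the counts were 30 (Tsai), 29 (dilution), 7 (14 h), 25 (16 h), 16 (22 to 26 h) and 2 (chemostat).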
